A study of Mus musculus with 4 samples.

Results

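The genes described here encode the subunits of the glutamate and GABA receptors. They were chosen by gene symbol alone, and 46 of the 33981 genes in the joined tables matched, 26 for glutamate receptors (4 AMPA, 5 kainate, 7 NMDA, 2 delta and 8 metabotropic) and 20 for GABA receptors (18 GABA-A and 2 GABA-B). Poly(A) RNA was sequenced from a coronal slab of brain holding the prefrontal cortex of male C57BL/6J mice aged 3-5 months, killed on day 28 of an infusion. The NT + Sham and NT + Stroke mice had been infused with saline (vehicle), whereas the HT + Sham and HT + Stroke mice had received angiotensin II, a peptide that raises blood pressure, at 0.28 mg/kg each day over those 28 days. On day 7 the stroke groups had a photothrombotic stroke, a clot made by light in vessels filled with a photosensitive dye, aimed at the prefrontal cortex, and the other groups had sham surgery. Each group had 6 libraries (24 in all), numbered in the tables and each treated as 1 mouse. Nothing in the labels says that they came from separate mice, so *P* values measure the spread between these libraries.

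Glutamate is the main excitatory transmitter of the cortex and GABA the main inhibitory one. AMPA and kainate receptors carry fast excitatory current, NMDA receptors admit calcium when glutamate and depolarisation coincide, and metabotropic receptors act through G proteins. GABA-A receptors are chloride channels built from alpha, beta and gamma or delta subunits, and GABA-B receptors are G protein-coupled dimers of a ligand-binding and a signalling subunit.

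Some libraries stood apart from their group. *C3*, a complement gene that rises after injury, had 51 and 54 counts in libraries 1 and 6 of HT + Stroke against 601 to 2736 in the other 4, and those 2 libraries also had the lowest astrocyte and microglial marker scores of their group. Library 6 of HT + Sham had 210 *C3* counts against 1 to 28 in the other 5, with the highest astrocyte, microglial and olfactory bulb scores and the lowest striatal score of its group. Total counts ran from 15922919 to 24865998 per library. The main HT results are given with and without these 3 libraries. Since they were picked by *C3* and glial scores, leaving them out tends by itself to widen the difference between stroke and sham.

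Receptor levels were first compared per length, as FPKM (fragments scaled by gene length and by the size of the library). In NT + Sham the highest levels were those of *Gabbr1* (89.0 ± 2.10 FPKM, SD, n = 6), the ligand-binding GABA-B subunit, and *Grik5* (84.01 ± 7.27 FPKM), a kainate subunit that binds glutamate with high affinity. The obligatory NMDA subunit *Grin1* followed at 51.1 ± 2.37 FPKM and the AMPA subunit *Gria1* at 49.3 ± 3.48 FPKM, and these did not differ beyond their SDs. A few subunits made up most of their class by FPKM in NT + Sham, where *Grik5* held 81.1 ± 3.61% of the kainate class, *Gabbr1* 74.8 ± 2.59% of the GABA-B class and *Grin1* 57.9 ± 1.89% of the NMDA class.

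AMPA transcripts were shared more evenly. Among AMPA subunits *Gria1* held 48.8 ± 1.52% of the summed FPKM and *Gria2*, the subunit that makes the channel impermeable to calcium, 21.4 ± 0.358%. The highest metabotropic level was that of *Grm2* (22.8 ± 1.89 FPKM), a presynaptic group II receptor. GABA-A genes spanned a wide range, with *Gabrd*, a subunit of extrasynaptic receptors, at 32.0 ± 2.42 FPKM, *Gabra3*, an alpha subunit, at 25.3 ± 3.12 FPKM, and others with a few reads. Counts in single libraries were 3 to 20 for *Grin3b*, 3 to 20 for *Gabre*, 0 to 28 for *Gabrp*, 0 to 6 for *Gabrr1*, 0 to 8 for *Gabrr3* and 0 to 5 for *Grm6*, a receptor known from the retina. These 6 genes failed the filter on low counts in most comparisons, and at this depth none was called in any comparison of all libraries. *Gabre* was called higher in HT + Stroke vs NT + Sham only without libraries 1 and 6 of HT + Stroke.

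**Figure D1:**
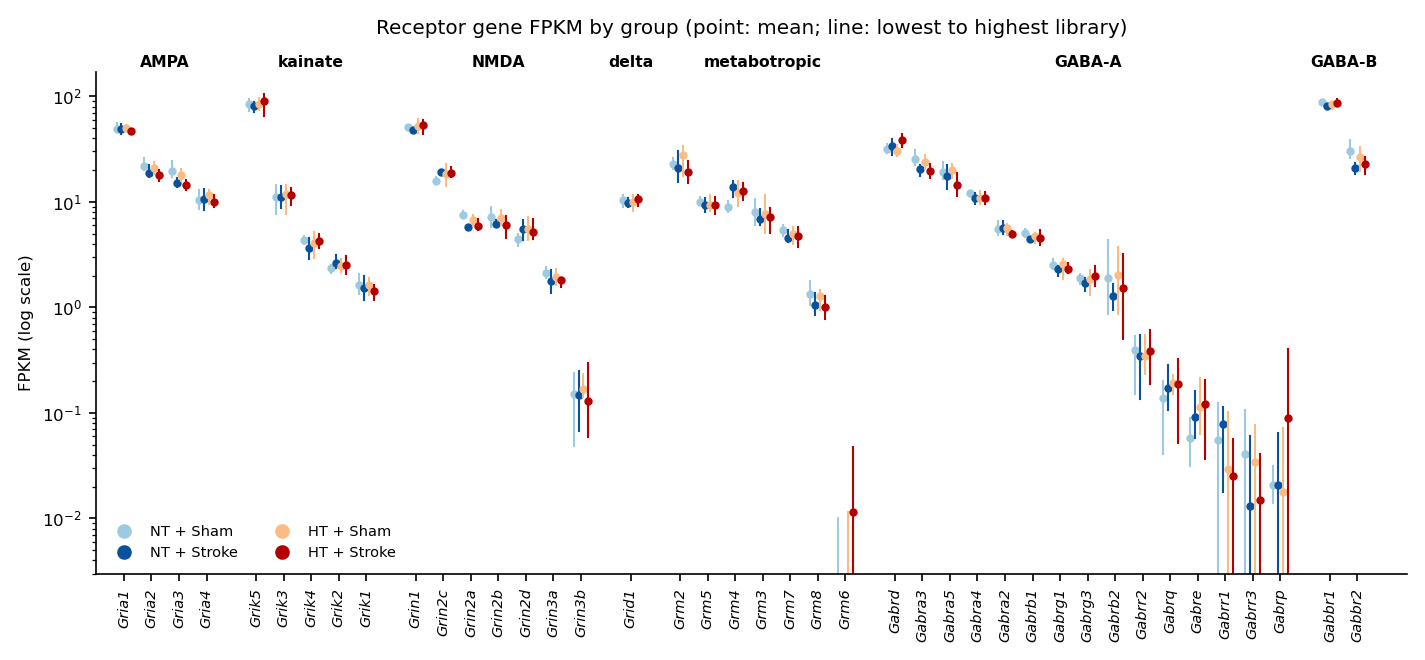
FPKM (log axis) of 41 of the 46 receptor genes by class, ordered within a class by the NT + Sham mean, with the group mean as a point and the lowest to highest of the 6 libraries as a line (a line to the axis means a library below 0.003). *Gabbr1* and *Grik5* have the highest NT + Sham means (89.0 and 84.01 FPKM), and the differences between genes are much larger than those between groups.

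Without angiotensin II, genes of both glutamate and GABA receptors fell after stroke. In NT + Stroke vs NT + Sham, 40 of the 46 genes could be tested, and at an adjusted *P* under 0.05 in edgeR's quasi-likelihood test 15 fell (37.5%) and 2 rose (5.0%), against 11.5% of all 16835 genes tested lower and 14.4% higher. The median log2 fold change was -0.18 over the receptor genes and -0.011 over all genes. By class it was -0.16 for AMPA, -0.093 for kainate, -0.21 for NMDA, -0.17 for metabotropic, -0.20 for GABA-A and -0.37 for GABA-B. The glutamate genes had 8 that fell and 2 that rose of 24 tested, and the GABA genes 7 that fell and 0 that rose of 16 tested.

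Each of these changes was under 1.5-fold. For 8 lower and 2 higher genes the 6 NT + Stroke libraries did not overlap the 6 NT + Sham libraries, against 5.74% of all genes tested lower without overlap and 7.78% higher. With scaling by library size alone in place of TMM, 7 receptor genes fell and 3 rose, against 6.06% and 17.7% of all genes, and *Gria2*, *Grik4*, *Grin2b*, *Grin3a*, *Grm7*, *Gabra4* and *Gabbr1*, among others, kept their sign but no longer passed. In such bulk tissue, fewer cells that carry a receptor and less RNA per cell cannot be told apart.

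**Figure D2:**
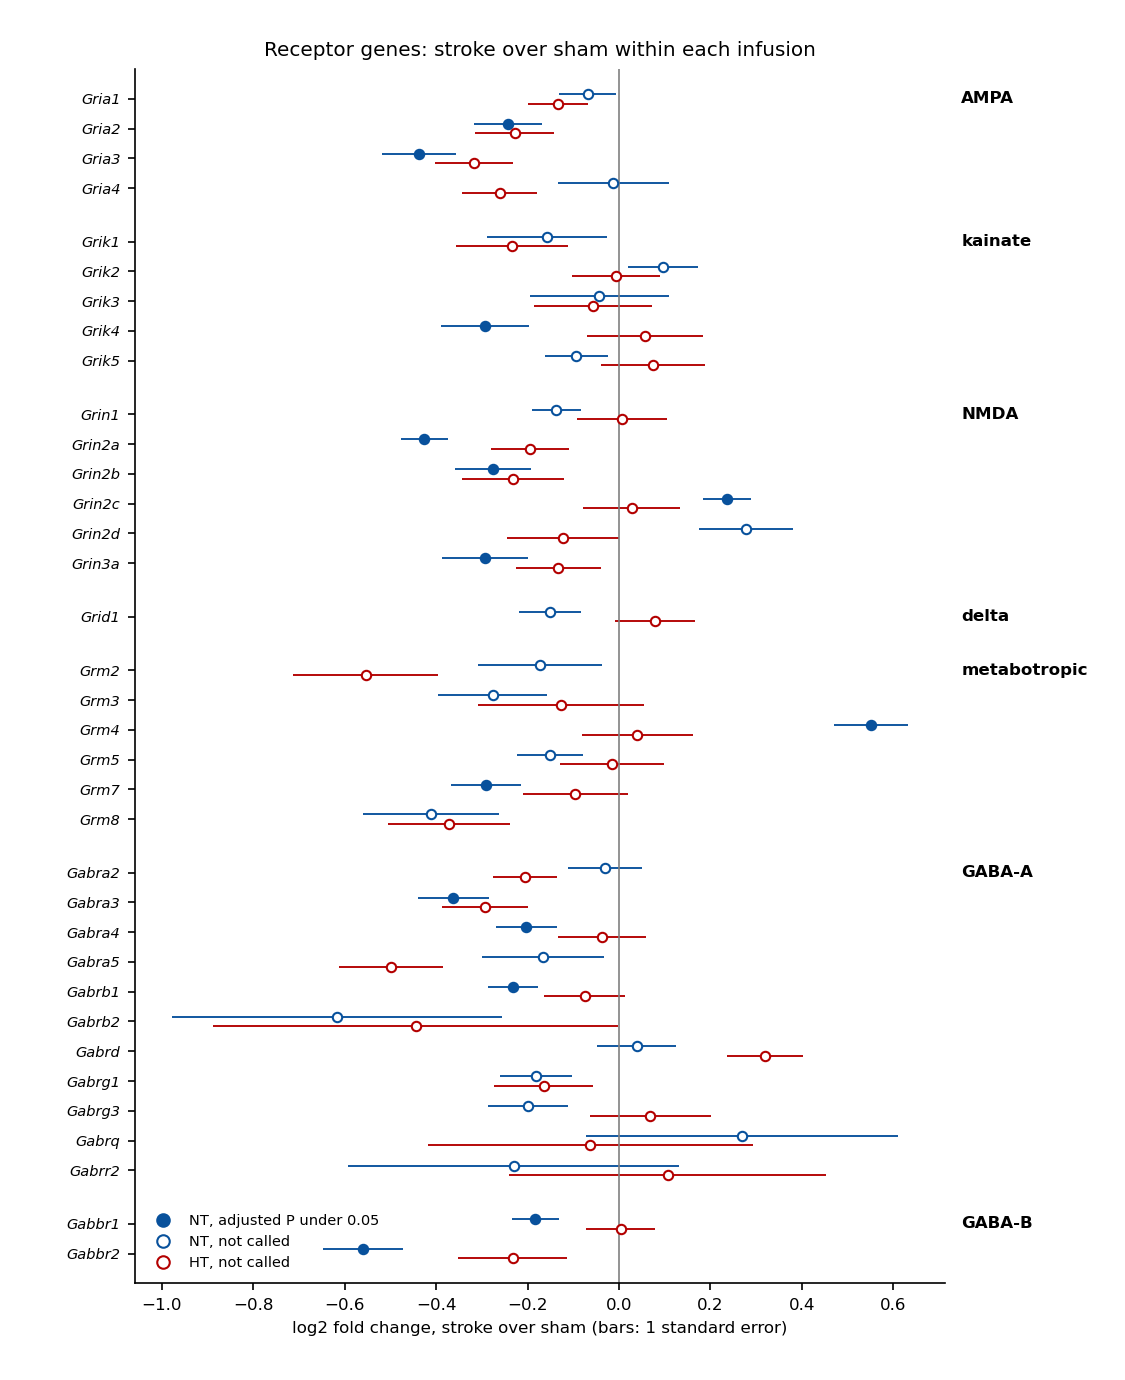
Log2 fold change of stroke over sham (bars, 1 SE) for 35 of the 40 receptor genes tested in both infusions, NT in blue and HT in red, with filled points at an adjusted *P* under 0.05. All 14 filled points belong to NT, 12 of them below 0, and *Grm4* (0.55) and *Grin2c* (0.24) lie above 0.

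Among AMPA subunits *Gria3* and *Gria2* fell. *Gria3*, a subunit that often pairs with GluA2, ran from 169 to 245 CPM (median 189.9) in NT + Sham and from 133 to 161 CPM (median 142) in NT + Stroke. All 6 stroke libraries lay below all 6 sham libraries, and the log2 fold change was -0.44 (SE 0.0808, adjusted *P* = 0.000548), or 26.1% lower. *Gria2* changed by -0.24 (SE 0.0739, adjusted *P* = 0.0209), with 5 of 6 stroke libraries below the sham median. *Gria1*, the AMPA subunit with the highest FPKM, ran from 282 to 342 CPM (median 292) in NT + Sham and from 259 to 315 CPM (median 284) in NT + Stroke. In CPM, which is not scaled by gene length, *Gria2* was higher in NT + Sham (median 328). The *Gria1* groups overlapped, and its change of -0.069 on the log2 scale did not pass (adjusted *P* = 0.474). *Gria4* had -0.012 (adjusted *P* = 0.96).

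One of the 5 kainate subunits passed. *Grik4*, a high-affinity subunit, ran from 23.7 to 28.0 CPM (median 26.3) in NT + Sham and from 16.4 to 26.2 CPM (median 20.7) in NT + Stroke, with 6 of 6 stroke libraries below the sham median though the ranges overlapped, and a log2 fold change of -0.29 (SE 0.0961, adjusted *P* = 0.0308). *Grik5* ran from 377 to 488 CPM (median 439) in NT + Sham and from 346 to 448 CPM (median 410.4) in NT + Stroke and changed by -0.093 on the log2 scale (adjusted *P* = 0.359). The kainate subunits *Grik1*, *Grik2* and *Grik3* had log2 fold changes of -0.16, 0.096 and -0.043, none past the threshold.

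NMDA subunits moved in both directions. *Grin2a*, a subunit that increases as cortex matures, ran from 126 to 149 CPM (median 136) in NT + Sham and from 96.2 to 103 CPM (median 102) in NT + Stroke. Its groups did not overlap, and it had the smallest adjusted *P* of any receptor gene in this comparison, with a log2 fold change of -0.43 (SE 0.0516, adjusted *P* = 9.66e-06), or 25.6% lower. *Grin2b*, the subunit prominent early in development, fell by 0.28 on the log2 scale (adjusted *P* = 0.0205), and *Grin3a*, a subunit that lowers calcium entry, fell by 0.29 (adjusted *P* = 0.0281). *Grin2c*, which is known in cerebellar granule cells and in astrocytes, ran from 74.2 to 87.3 CPM (median 79.5) in NT + Sham and from 88.0 to 97.2 CPM (median 94.7) in NT + Stroke. All 6 stroke libraries were above all 6 sham libraries, and the log2 fold change was 0.24 (SE 0.0521, adjusted *P* = 0.00236), or 17.8% higher. *Grin2d*, a subunit found in interneurons, had 0.28 (adjusted *P* = 0.0556) and the obligatory *Grin1* -0.14 (adjusted *P* = 0.0696), the latter from 473 to 520.4 CPM (median 501) in NT + Sham and from 411 to 474 CPM (median 458) in NT + Stroke.

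*Grid1* encodes a delta subunit, a kind that organises synapses and carries little current of its own. It ran from 53.6 to 68.4 CPM (median 64.2) in NT + Sham and from 52.3 to 63.3 CPM (median 55.4) in NT + Stroke, the groups overlapped, and it changed by -0.15 on the log2 scale (adjusted *P* = 0.113).

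Of the metabotropic receptors, *Grm4* rose and *Grm7* fell, both group III receptors that lower transmitter release. *Grm4* ran from 48.5 to 60.3 CPM (median 54.8) in NT + Sham and from 65.3 to 89.8 CPM (median 79.9) in NT + Stroke. The groups did not overlap, and the log2 fold change of 0.55 (SE 0.0808, adjusted *P* = 5.92e-05), or 46.6% higher, was the largest rise among the 40 genes tested. *Grm7* ran from 28.5 to 35.2 CPM (median 32.6) in NT + Sham and from 23.9 to 31.0 CPM (median 25.4) in NT + Stroke, with 6 of 6 stroke libraries below the sham median and overlapping ranges, and fell by 0.29 on the log2 scale (SE 0.0760, adjusted *P* = 0.00823). *Grm8*, also of group III, had -0.41 (adjusted *P* = 0.051). *Grm5*, a group I receptor that raises calcium through Gq, and the group II receptors did not pass, with log2 fold changes of -0.15 for *Grm5* and of -0.17 for *Grm2* and -0.28 for *Grm3*, which couple to Gi. *Grm2* ran from 101 to 127 CPM (median 112) in NT + Sham and from 74.0 to 147 CPM (median 93.5) in NT + Stroke, the stroke libraries spreading to both sides of the sham libraries.

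Of the 14 GABA-A genes tested 5 fell and 0 rose. *Gabra3* ran from 88.8 to 123 CPM (median 95.1) in NT + Sham and from 67.2 to 84.9 CPM (median 78.6) in NT + Stroke. The groups did not overlap, and the log2 fold change was -0.36 (SE 0.0776, adjusted *P* = 0.00191), or 22.2% lower. The beta subunit gene *Gabrb1* fell by 0.23 on the log2 scale (adjusted *P* = 0.00426) without overlap, and *Gabra4* by 0.20 (adjusted *P* = 0.0318) with overlap. *Gabrd* ran from 84.9 to 102 CPM (median 92.2) in NT + Sham and from 76.1 to 111 CPM (median 94.8) in NT + Stroke, the stroke libraries lay on both sides of the sham median, and its log2 fold change was 0.039 (adjusted *P* = 0.793). *Gabrb2* had the lowest fitted value, -0.62, but with an SE of 0.361 it did not pass. Its 6 NT + Sham libraries spread from 5.51 to 27.8 CPM.

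GABA-A genes lie in clusters, and genes of 1 cluster did not all pass together. On chromosome 5 *Gabra4* (71569749 to 71658308, GRCm38) and *Gabrb1* (71658113 to 72149037), which start head to head and share 46 exonic bases on opposite strands, fell, whereas *Gabra2* (-0.031) and *Gabrg1* (-0.18) in the same cluster did not pass. Neither *Gabrg3* (-0.20) nor *Gabra5* (-0.17) on chromosome 7 passed. On the X chromosome *Gabra3* fell and *Gabrq* (0.27, with an SE of 0.340) did not pass.

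Both GABA-B subunits fell, by unequal amounts. *Gabbr2*, the subunit that couples the dimer to G proteins, ran from 176 to 258 CPM (median 194) in NT + Sham and from 117 to 151 CPM (median 138) in NT + Stroke. *Gabbr1* ran from 677 to 722 CPM (median 686) in NT + Sham and from 557 to 639.7 CPM (median 618) in NT + Stroke. The groups overlapped for neither gene, and the log2 fold changes were -0.56 (SE 0.0880, adjusted *P* = 0.000131) for *Gabbr2* and -0.18 (SE 0.0516, adjusted *P* = 0.0132) for *Gabbr1*, or 32.2% and 11.9% lower. The fall of *Gabbr2* was the largest among the genes that passed.

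**Figure D3:**
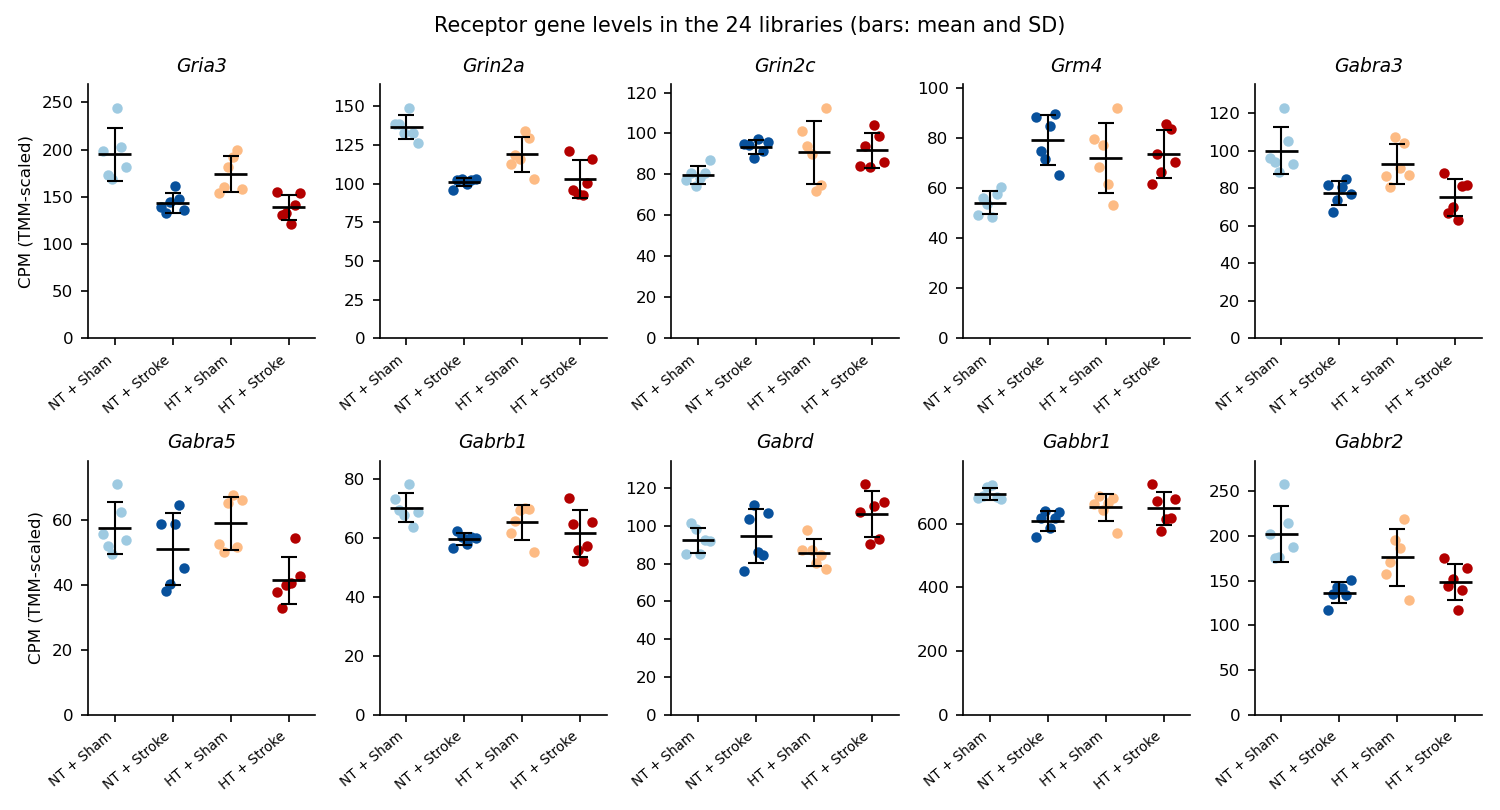
TMM-scaled CPM (vertical axes from 0) of 10 receptor genes in each of the 24 libraries, coloured by group, with the group mean and SD as bars. The NT + Stroke libraries of *Gabbr2* (117 to 151 CPM) lie below all NT + Sham libraries (176 to 258) and those of *Grm4* (65.3 to 89.8) lie above them (48.5 to 60.3), whereas HT + Sham and HT + Stroke overlap in every panel.

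The calls differed in how far they rested on 1 library. Of the 17 genes, 11 passed in all 12 fits that left out 1 library, among them *Gria3*, *Grin2a*, *Grin2c*, *Grm4*, *Grm7*, *Gabra3*, *Gabrb1*, *Gabbr1* and *Gabbr2*. *Gria2* was lost without library 4 of NT + Sham or library 2 of NT + Stroke (-0.29 to -0.17 over the 12 fits) and *Grin2b* without library 1 of NT + Sham (-0.32 to -0.19). *Grin3a* was lost without library 4, 5 or 6 of NT + Sham or 1, 2 or 4 of NT + Stroke (-0.37 to -0.22). *Grik4* (-0.37 to -0.22) was lost without library 1, 4, 5 or 6 of NT + Sham or 1, 2 or 5 of NT + Stroke, and *Gabra4* (-0.24 to -0.15) without library 2, 3, 4 or 5 of NT + Sham or 1, 2 or 4 of NT + Stroke. All 17 had the same sign in every one of these fits.

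The promoters of 3 of these genes are shown to set a pair that fell (*Gabbr1* and *Gabra3*) beside one that rose (*Grin2c*). Each is the 250 bases before a RefSeq start site on GRCm38.p6, read 5′ to 3′ on the strand of the gene, with GC boxes (GGGCGG, either strand) and TATA boxes (TATAAA, either strand) in capitals.
Gabbr1, chr17:37045716-37045965, plus strand: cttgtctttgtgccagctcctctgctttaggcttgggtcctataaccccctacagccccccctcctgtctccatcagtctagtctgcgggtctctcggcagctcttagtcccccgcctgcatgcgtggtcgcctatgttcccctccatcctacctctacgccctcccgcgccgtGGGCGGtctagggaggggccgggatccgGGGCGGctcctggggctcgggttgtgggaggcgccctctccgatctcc
Gabra3, chrX:72656920-72657169, minus strand: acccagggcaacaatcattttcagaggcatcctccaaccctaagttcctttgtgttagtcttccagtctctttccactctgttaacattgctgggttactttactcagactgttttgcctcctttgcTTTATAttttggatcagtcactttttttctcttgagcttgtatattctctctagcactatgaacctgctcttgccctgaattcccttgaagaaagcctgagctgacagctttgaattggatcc
Grin2c, chr11:115267244-115267493, minus strand: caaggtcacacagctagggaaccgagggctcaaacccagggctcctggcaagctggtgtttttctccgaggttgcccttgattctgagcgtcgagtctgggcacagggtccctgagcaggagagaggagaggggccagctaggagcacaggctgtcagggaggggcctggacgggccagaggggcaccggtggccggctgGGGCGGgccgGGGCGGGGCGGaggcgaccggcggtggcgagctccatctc
*Gabbr1* held 2 GC boxes and 16 CpG dinucleotides and *Grin2c* 3 GC boxes and 15, whereas *Gabra3* held a TATA box, 0 GC boxes and 0 CpG dinucleotides. The *Gabra3* match is TATAAA on the opposite strand and lies near the middle of the 250 bases, so it need not be a working TATA box. Whether the kind of promoter goes with a fall was not tested. RefSeq entries matched 31 of the 46 genes, and of their 38 start sites 47.4% held a GC box against 32.7% of all 32851, 10.53% a TATA box against 12.4%, 5.26% an AP-1 site (TGANTCA, either strand) against 6.75%, and 0% a full cAMP response element (TGACGTCA) against 1.55%. Median GC content was 59.6% against 52.4% at 250 bases. Of the printed matches, the last 2 GC boxes of *Grin2c* share 1 base.

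Markers of other cells and regions moved beside these genes. In NT + Stroke vs NT + Sham 7 of 9 astrocyte markers and 8 of 9 microglial and macrophage markers rose, 0 of either fell, and the scores (mean log2(CPM + 1) of a list) ran from 6.63 to 6.77 in NT + Sham and 7.14 to 7.29 in NT + Stroke for astrocytes and from 4.81 to 5.00 and 5.50 to 6.12 for microglia. Of 10 pan-neuronal markers 4 fell (median log2 fold change -0.23), and of 10 markers of cortical excitatory neurons 8 fell (median -0.50), a larger median than that of the receptor genes. Their scores ran from 6.45 to 6.59 in NT + Sham and from 5.93 to 6.20 in NT + Stroke. Of the other lists, 3 of 6 oligodendrocyte, 2 of 5 oligodendrocyte precursor, 2 of 6 endothelial, 3 of 6 thalamic and 1 of the 4 choroid plexus markers tested rose and 0 fell, 2 of 10 interneuron markers rose and 3 fell, and 1 of the 3 cerebellar markers tested rose and 1 fell. Over all genes tested 14.4% rose and 11.5% fell. The part of the cells of these lists in the receptor values was not tested.

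Scores of regional markers also varied between libraries, and whether the slabs held different regions was not tested. The olfactory bulb score lay between 3.29 and 4.36 in NT + Sham and between 3.93 and 5.74 in NT + Stroke, where 5 of 9 of its markers rose. The striatal score lay between 4.51 and 6.68 in NT + Sham and between 4.78 and 7.21 in NT + Stroke. Its 10 markers were all higher after stroke, with a median log2 fold change of 0.71 (0.38 to 1.01), though 0 of them passed. No marker of any list was at 0 in all libraries. With both scores as covariates the 17 receptor genes kept their sign and the median log2 fold change of the 15 lower genes was -0.26 against -0.29 without them, but the median SE of the 17 rose from 0.0760 to 0.112 and none of the 17 passed. Only 8 of the 17 had an unadjusted *P* under 0.05 in edgeR's test with both scores. The 1 receptor gene that passed in that fit was *Gabra5* (-0.42, adjusted *P* = 0.047), against 4.24% of all genes higher and 0.451% lower. With the striatal score alone 11 receptor genes fell and 3 rose, against 25.8% of all genes called. With the olfactory bulb score alone 17 fell and 3 rose, against 20.7% of all genes called.

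*Gabra5*, an extrasynaptic alpha subunit, depended most visibly on these scores. In NT + Stroke vs NT + Sham its log2 fold change was -0.17 without a score, -0.017 with the striatal score and -0.54 (adjusted *P* = 0.000124) with the olfactory bulb score. For *Gabbr2* the same values were -0.56, -0.48 and -0.55, all past the threshold, and -0.24 with both (adjusted *P* = 0.357).

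**Figure D4:**
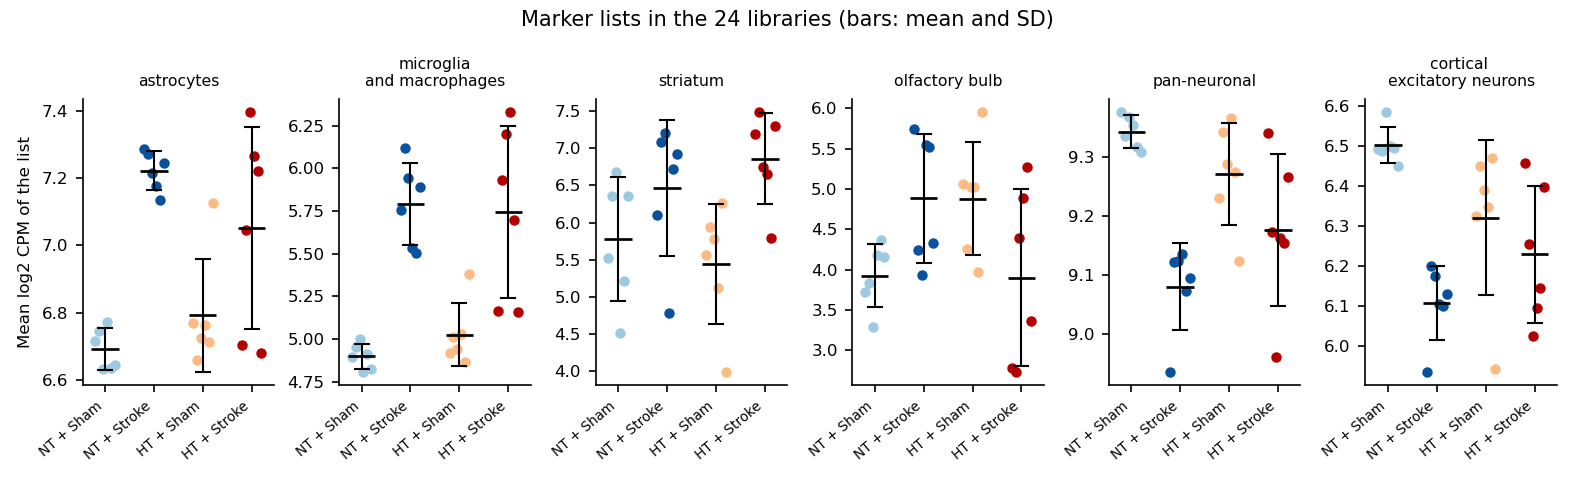
Scores (mean log2(CPM + 1)) of 6 marker lists in each library by group, with the group mean and SD as bars, each panel on its own axis, which does not start at 0. NT + Stroke lies above NT + Sham for astrocytes and microglia and below it for both neuronal lists, and in HT + Stroke 2 libraries lie at the sham level of astrocyte markers.

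Under angiotensin II the receptor genes leaned the same way but none passed. In HT + Stroke vs HT + Sham 41 genes were tested and 0 were called in either direction in edgeR's test, against 0.102% of all 16741 genes lower and 0.544% higher. At an unadjusted *P* under 0.05 there were 14 of 41, of which 13 were lower and 1 higher, against 17.0% of all genes. With DESeq2 4 fell and 1 rose, against 1.17% of all genes lower and 3.71% higher. The median log2 fold change was -0.13 over the receptor genes and 0.000689 over all genes. By class it was -0.24 for AMPA, -0.0073 for kainate, -0.13 for NMDA, -0.13 for metabotropic, -0.16 for GABA-A and -0.11 for GABA-B. For 0 receptor genes did the HT + Stroke and HT + Sham libraries not overlap, against 0.567% of all genes lower and 0.579% higher.

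The genes with the smallest adjusted *P* were *Gabra5*, *Gabrd*, *Gria3* and *Grm2*, of which only *Gria3* was called in the NT comparison. *Gabra5* ran from 50.1 to 67.7 CPM (median 58.8) in HT + Sham and from 32.8 to 54.3 CPM (median 40.1) in HT + Stroke, with 6 of 6 stroke libraries below the sham median, and its log2 fold change was -0.50 (SE 0.114, adjusted *P* = 0.0559). *Gabrd* ran from 77.0 to 97.8 CPM (median 85.8) in HT + Sham and from 90.6 to 122 CPM (median 109) in HT + Stroke, with 6 of 6 stroke libraries above the sham median, and had 0.32 (SE 0.0836, adjusted *P* = 0.0794). *Grm2* ran from 84.3 to 162 CPM (median 138) in HT + Sham and from 71.4 to 115 CPM (median 86.9) in HT + Stroke and had -0.55 (SE 0.158, adjusted *P* = 0.101), again with 6 of 6 stroke libraries on 1 side of the sham median. Each pair of groups overlapped in range.

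Of the genes called without angiotensin II, *Gria3* had -0.32 here (adjusted *P* = 0.086), *Gabra3* -0.29, *Gabbr2* -0.23 and *Grin2a* -0.19, and 12 of the 15 that had fallen were below 0, with a median of -0.19 against -0.29. *Gria3* ran from 154 to 200.03 CPM (median 171) in HT + Sham and from 121 to 155 CPM (median 137) in HT + Stroke and *Gabbr2* from 128 to 219 CPM (median 178) in HT + Sham and from 117 to 175 CPM (median 148) in HT + Stroke. Their 6 stroke libraries lay below the HT + Sham median. *Grm4* (0.040), *Grin2c* (0.028), *Gabbr1* (0.0039) and *Grik4* (0.057) were near 0. The NT and HT stroke comparisons share no library, and 28 of the 40 genes tested in both had the same sign, 25 below 0 and 3 above. Most receptor genes were below 0 in each comparison (33 of 40 in NT and 29 of 41 in HT), so that lean alone makes many signs match. Across the 40 genes the log2 fold changes of the 2 comparisons had a Pearson correlation of 0.37.

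Of the marker lists, 4 of 6 oligodendrocyte markers (median log2 fold change 0.51), 1 of 10 cortical excitatory and 1 of 6 thalamic markers rose in HT + Stroke vs HT + Sham and 0 of any list fell, with medians of 0.75 for microglia, 0.20 for astrocytes and -0.058 for pan-neuronal markers, lists of which 0 markers passed. Over all genes tested 0.544% rose and 0.102% fell. The oligodendrocyte score ran from 8.42 to 8.84 in HT + Sham and from 8.89 to 9.06 in HT + Stroke without overlap, and its part in the receptor values was not tested.

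The HT result depended on single libraries. Leaving out library 5 of HT + Sham gave 2 called genes (*Grm2* and *Gabra5*), library 1 of HT + Stroke 2 (*Gria3* and *Gabra5*), and library 5 or 6 of HT + Stroke 1 (*Gabra5*), all lower, against 0.0888%, 0.485%, 0.279% and 0.171% of all genes lower in those 4 fits. Libraries 1 and 6 of HT + Stroke had the lowest *C3* counts and glial scores of their group, so leaving them out selects for injury. Without these libraries 5 receptor genes fell and 0 rose, against 1.05% of all genes lower and 5.8% higher. They were *Gria3* (-0.41), *Grin2a* (-0.31), *Grm8* (-0.52), *Gabra3* (-0.40) and *Gabra5* (-0.49). With library 6 of HT + Sham left out as well, 5 fell, with *Gabbr2* (-0.43) in place of *Gabra5*, against 1.66% of all genes lower and 6.81% higher, and the median of the 15 genes that had fallen without angiotensin II was -0.34. The striatal score ran from 3.996 to 6.26 in HT + Sham and from 5.79 to 7.49 in HT + Stroke, and the olfactory bulb score from 3.98 to 5.96 and from 2.74 to 5.27, the latter moving the opposite way to the NT comparison. Over all HT libraries the median log2 fold change was 1.35 for striatal markers (0.96 to 2.02). For olfactory bulb markers it was -0.77 (-1.05 to -0.44), and 0 markers of either list passed. With both scores as covariates 0 receptor genes passed, as did 0.0% of all genes in each direction, and all 17 genes called in the NT comparison had their NT sign.

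The difference of the stroke effects was itself tested over the 24 libraries. Of 42 receptor genes 0 passed the interaction, as did 0.0% of all 17608 genes in each direction, 7 had an unadjusted *P* under 0.05 (against 10.4% of all genes), and DESeq2 called 0 receptor genes (against 0.131% of all genes). The smallest belonged to *Grm4*, with an interaction of -0.52 on the log2 scale (SE 0.153, adjusted *P* = 0.319), or -0.36 without the 3 libraries that stood apart (adjusted *P* = 0.993). Its level ran from 53.4 to 92.2 CPM (median 72.8) in HT + Sham and from 61.7 to 85.8 CPM (median 71.9) in HT + Stroke. The others included *Grin2a*, *Gabrd* and *Gabbr1* with positive values (0.23, 0.27 and 0.18) and *Grin2d* with a negative one (-0.40). The stroke effects on receptor RNA were not shown to differ between the infusions, nor to be equal.

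Angiotensin II alone was not associated with a called receptor gene. In HT + Sham vs NT + Sham 0 of 40 receptor genes passed edgeR's test, as did 0.0% of all 16581 genes in each direction, 5 had an unadjusted *P* under 0.05 (against 8.03% of all genes), and DESeq2 called 0, in receptor genes as in all genes. The smallest was that of *Grm4*, with a log2 fold change of 0.41 (SE 0.109, adjusted *P* = 0.406), higher in 5 of 6 HT + Sham libraries than the NT + Sham median, and 0.33 without library 6 of HT + Sham (adjusted *P* = 0.822). *Grin2d* (0.30) and *Grm2* (0.27) were also higher and *Grin2a* (-0.20) and *Gabra4* (-0.17) lower at that unadjusted level. In HT + Stroke vs NT + Stroke 0 of 40 passed, as did 0.0% of all 17008 genes in each direction, 2 had an unadjusted *P* under 0.05 (against 7.23% of all genes), and DESeq2 again called 0 of all genes. *Gabra2*, an alpha subunit, had the smallest *P*, running from 37.1 to 48.6 CPM (median 40.8) in NT + Stroke and from 34.5 to 39.0 CPM (median 36.5) in HT + Stroke with 6 of 6 HT + Stroke libraries below the NT + Stroke median and a log2 fold change of -0.18 (SE 0.0682, adjusted *P* = 0.654), or -0.22 without libraries 1 and 6 of HT + Stroke (adjusted *P* = 0.854).

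Stroke with angiotensin II was also set against neither. In HT + Stroke vs NT + Sham 11 of 40 receptor genes fell and 2 rose, against 6.37% of all 16749 genes lower and 8.38% higher. Among these, *Gria2*, *Gria3*, *Grin2a*, *Grin3a*, *Gabra3* and *Gabbr2* fell and *Grm4* (0.45) and *Grin2c* (0.21) rose, as they had in NT + Stroke vs NT + Sham, which shares the NT + Sham libraries. *Grm8* (-0.48, adjusted *P* = 0.0393) and *Gabra5* (-0.46, adjusted *P* = 0.015) fell here and had not passed there. Without libraries 1 and 6 of HT + Stroke the count of 13 became 19 (16 lower, 3 higher), against 8.49% of all genes lower and 12.2% higher, and with the regional scores as covariates it became 0, as did that of all genes (0.0%). Without library 4 or 5 of NT + Sham or library 2 of HT + Stroke it was 8, against 8.6%, 9.07% and 8.02% of all genes called.

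Ratios between subunits of 1 class were then taken within each library, as log2 of the FPKM ratio, which needs no scaling between libraries. There were 5 ratios, picked after the gene values had been seen, and 20 comparisons, tested by exact two-sided permutation and adjusted over the 20, and 3 of the ratios are given here. The ratio of *Gabbr2* to *Gabbr1* ran from -1.80 to -1.27 (median -1.59) in NT + Sham and from -2.04 to -1.83 (median -1.97) in NT + Stroke. The groups did not overlap, the difference was -0.37, and the exact *P* of 0.00216 is the smallest that 6 against 6 libraries can give (adjusted *P* = 0.0433). Between HT + Stroke and HT + Sham the same difference was -0.23 (exact permutation *P* = 0.0714, adjusted 0.169), and without the 3 libraries that stood apart it was -0.32 (exact permutation *P* = 0.0556).

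The other ratios given here did not pass. *Grin2a* to *Grin2b* differed by -0.16 in NT + Stroke vs NT + Sham (exact permutation *P* = 0.0714) and by 0.045 in HT + Stroke vs HT + Sham (exact permutation *P* = 0.630). *Gria2* to the sum of the other AMPA subunits differed by -0.099 (exact permutation *P* = 0.0216, adjusted 0.144) and by -0.039 (exact permutation *P* = 0.413). Without the 3 libraries that stood apart the latter difference was -0.10 (exact permutation *P* = 0.0635), and that of *Grin2a* to *Grin2b* was 0.042 (exact permutation *P* = 0.746). For the angiotensin II comparisons all 10 adjusted *P* values, those of all 5 ratios, were 0.169 or above.

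**Figure D5:**
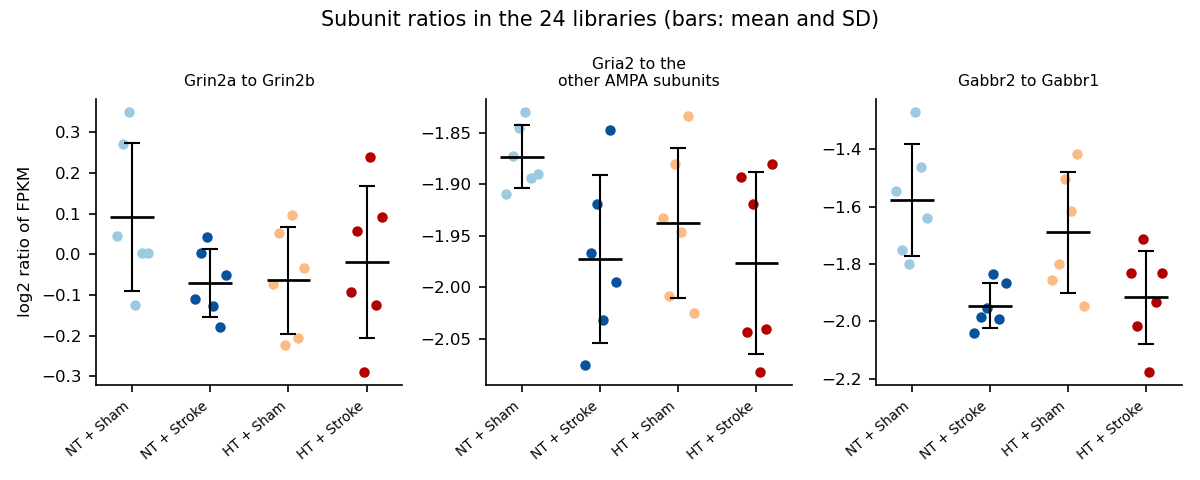
Log2 ratio of FPKM between subunits in each library by group, with the group mean and SD as bars, each panel on its own axis, which does not start at 0. The NT + Stroke libraries of *Gabbr2* to *Gabbr1* (−2.04 to −1.83) lie below all NT + Sham libraries (−1.80 to −1.27), and those of the HT groups overlap.

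Genes that work with the receptors were read from lists beside them. Of 16 auxiliary and clustering proteins of AMPA and kainate receptors 6 fell and 1 rose in NT + Stroke vs NT + Sham. Over all genes tested 11.5% fell and 14.4% rose. The partners that fell included the TARP *Cacng3* (-0.38) and the neuronal pentraxins *Nptx1* (-0.43) and *Nptxr* (-0.45), which gather AMPA receptors at synapses. The TARP *Cacng4* rose (0.33). Of 20 scaffold genes 7 fell, among them *Camk2a* (-0.34), *Shank1* (-0.30) and *Homer1* (-0.28), and *Homer3* rose (0.56). In the same comparison 2 of 15 GABA receptor anchoring and auxiliary genes fell and 2 rose, near the shares of all genes. Those that rose were *Kctd12* (0.68) and *Kctd12b* (0.60), whose proteins attach to GABA-B receptors.

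Genes for making and moving the transmitters moved in both directions. Of 15 in NT + Stroke vs NT + Sham, 6 rose and 3 fell, against 14.4% of all genes higher and 11.5% lower. Those that rose were the GABA-synthesis enzyme *Gad2* (0.37), the vesicular GABA transporter *Slc32a1* (0.45), the GABA-degrading *Abat* (0.23), the GABA transporter *Slc6a13* (0.72), and the astrocytic *Slc1a3* (0.25) and *Glul* (0.20). The vesicular glutamate transporter *Slc17a7* (-0.49) and the neuronal glutamate transporter *Slc1a1* (-0.19) were among those that fell. *Gad2* and *Slc32a1* are the same 2 genes that rose in the list of interneuron markers. They are also expressed by olfactory bulb and striatal neurons, whose scores moved as given above. In HT + Stroke vs HT + Sham 1 of these 66 partner genes passed, *Cacng4*, which rose (0.38), against 0.544% of all genes higher and 0.102% lower.

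Some counts may hold reads of overlapping genes. In GENCODE release M21 8 of the 46 genes share over 5% of their exonic length with another gene, 14 share bases with a gene on the opposite strand, and whether strand was used in counting is not given in the sources used here. Of genes given in full above, *Grin1* shares 13.5% with an antisense transcript and *Grm2* 9.60%.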

How the data were processed

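The deposited tables, 1 for each comparison of the authors, give raw counts per gene made with featureCounts 1.5.0-p3 and, for the same libraries, FPKM values that the authors computed. They name DESeq2 1.20.0 in the submitters' processing notes, while the methods of the study name DESeq. The aligner, the genome build and the strand setting are not given in the sources used here. The tables were joined by gene ID, and 56 further value columns (normalized counts and group means), like the deposited log2 fold changes and p-values, were not used. Counts were tested in R 4.3.3 with edgeR 4.0.16 (limma 3.58.1), with genes kept by filterByExpr (minimum count 10, minimum total 15), TMM scaling, a robust quasi-likelihood fit and Benjamini-Hochberg adjustment over all genes tested, at a threshold of 0.05. Each comparison used its own 12 libraries, and the interaction used all 24. The SE is the absolute log2 fold change over the square root of F. CPM are scaled by TMM over all libraries. A marker score is the mean log2(CPM + 1) over those listed genes that averaged 0.5 CPM or more. DESeq2 1.42.0, other scalings and filters, covariates, a replicate block and left-out libraries were alternatives. The script of the main test was tested on simulated data. Library values were given for the called receptor gene with the largest rise and fall in each class (by the mean of both stroke comparisons). They were also given for the member of each class with the highest FPKM, and for the gene with the smallest *P* where none was called. Others were chosen after their values were seen. The members and all gene lists were chosen with earlier results of these data known. Motifs and GC content were read from RefSeq promoters (GRCm38.p6), and exon overlaps and gene coordinates from GENCODE M21 (GRCm38). Promoters of 15 members were not used here, nor was *Gabra6*. Counts cover all members, but results for some single genes are not reported here.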

Additional observations from a re-analysis of the deposited data

Results flagged for a closer look

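In 7 of the 160 sets of 6 libraries examined (1 set for each group and each receptor gene or ratio given here), the highest library lay far from the rest by Dixon's test. Chance gives about 1 such set in 20. Of the 7, 4 were in library 4 of NT + Sham. That library had 342 CPM of *Gria1* against 282 to 304 in the other 5, 409 CPM of *Gria2* against 309.5 to 343, 114 CPM of *Grm5* against 98.9 to 103, and 27.8 CPM of *Gabrb2*, a beta subunit, against 5.51 to 11.7. *Gabrb2* was also high in library 1 of HT + Stroke, at 19.9 CPM against 3.06 to 9.08. *Grin3b*, which has few counts, was high in library 6 of HT + Sham, at 0.751 CPM against 0.464 to 0.555, and in library 3 of HT + Stroke, at 0.899 CPM against 0.191 to 0.429.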

How the results depend on the processing

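No receptor gene called in any comparison changed sign under any of the alternatives. In NT + Stroke vs NT + Sham the count of 17 called receptor genes became 10 with scaling by library size alone and 1 with the striatal and olfactory bulb scores as covariates, and lay between 13 and 19 when 1 library was left out. In HT + Stroke vs HT + Sham the count of 0 became 5 with DESeq2, 5 with all 4 groups in 1 fit and 1 with every gene of at least 1 count tested. It also became 5 without libraries 1 and 6 of HT + Stroke, or without these and library 6 of HT + Sham, and lay between 0 and 2 when 1 library was left out. In HT + Stroke vs NT + Sham the count of 13 became 0 with both scores as covariates and lay between 8 and 15 when 1 library was left out. The angiotensin II comparisons and the interaction gave 0 under all alternatives. The cause of these shifts was not tested. Whether library numbers pair the groups was not settled, since libraries of different number were not compared. Same-numbered NT libraries correlated in their deviations from the group mean by -0.0649 to 0.18. Over all group comparisons these correlations ran from -0.379 to 0.261. With the number as a replicate block the NT stroke count was 18, that of HT + Stroke vs HT + Sham 0 and that of HT + Stroke vs NT + Sham 4. Depth limits 6 genes of few counts. Leaving out the 3 libraries that stood apart, taking the regional scores 1 at a time and testing ratios were chosen after seeing the data. The 3 libraries were picked by *C3* and glial scores, so leaving them out tends to widen the difference between stroke and sham.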
